A study of Mus musculus with 25 samples.

Results

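The tissue outside the macrophages was compared between injured and healthy alveolar regions of mouse lung. The members are the non-immune segments, chosen by their labels as DNA-positive and CD45-negative: those of injured regions 4, 5, 7, 8 and 11 and of healthy regions 1, 3 and 13. They are 8 of the 24 tissue segments of the series, which holds 12 regions with 2 segments each and 1 reaction without tissue. The injured regions lie in the lung of 1 male mouse with the SP-C I73T genotype, taken 14 days after tamoxifen, which the labels give as a single gavage of 175 mg/kg. The healthy regions lie in the lung of 1 male control mouse with the same genotype label, marked as day 0 and untreated, and described as treated with oil in the design of the series. Both groups therefore carry the mutant allele, whose expression tamoxifen raises by removing a neomycin cassette through an inducible Flp-O recombinase. Ages of these 2 animals were not given in the labels. Regions were placed by histopathology on formalin-fixed, paraffin-embedded sections.

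Surfactant protein C is made by alveolar type II cells, the epithelial cells that secrete surfactant and renew the alveolar lining. The I73T substitution disturbs the trafficking of its proprotein, injures these cells and leads to inflammation and fibrosis. CD45 is carried by nearly all leukocytes, so that a CD45-negative segment of the alveolar wall is meant to hold epithelium, endothelium and stromal cells. In the GeoMx assay, barcoded probes bind RNA in the section, and light releases the barcodes of a chosen segment for sequencing. The macrophage segment (CD45+CD68+) of a region was collected apart from its non-immune segment. The probes are listed by barcode identifiers that the sources used here do not pair with gene names. The labelled compartment could therefore not be checked against marker genes, pathways were not analysed here, and the results are given for probes.

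The classes differed in size and depth before any probe was compared. Total counts, after removal of duplicate reads, were 204150, 249104 and 80259 in healthy regions 1, 3 and 13. Injured regions 4, 5, 7, 8 and 11 held 297817, 350101, 431992, 472015 and 498411 counts. The lowest injured total lay above the highest healthy one. The mean was 2.31 times as high in injured segments, with 410067 ± 84141 (SD, n = 5) against 177838 ± 87444 (SD, n = 3). The exact permutation test over the segments gave p = 0.0357 (two-sided), the smallest that 5 against 3 segments allow. Adjusted over the 6 segment measures tested, this p was 0.107. Since all regions of a class come from 1 mouse and count as technical replicates in the study, every p-value here measures the spread between regions only, and would be too small if read as one over mice. Each injured against healthy difference is also a difference between 2 mice, and the injury and the animal cannot be told apart.

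The injured segments also covered more tissue. Areas in the deposited worksheet, in a unit that it does not name, ran from 21304 to 27759 in healthy and from 37829 to 59308 in injured segments. The mean area was 1.96 times as large, and the groups did not overlap (exact permutation test, p = 0.0357, adjusted p = 0.107). Counts per 1000 units of area overlapped between the groups. They were 7354, 10287 and 3767 in healthy regions 1, 3 and 13, and 7873, 7513, 9529, 9463 and 8404 in injured regions 4, 5, 7, 8 and 11. The means of 8556 ± 915 (SD, n = 5) and 7136 ± 3265 (SD, n = 3) did not differ beyond the spread between segments (exact permutation test, p = 0.464, adjusted p = 0.557). Healthy region 13 had the lowest density of all 8 segments, and without it the ratio of the means turned from 1.20 to 0.97. From these counts, fewer cells and less RNA per cell cannot be told apart.

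**Figure D1:**
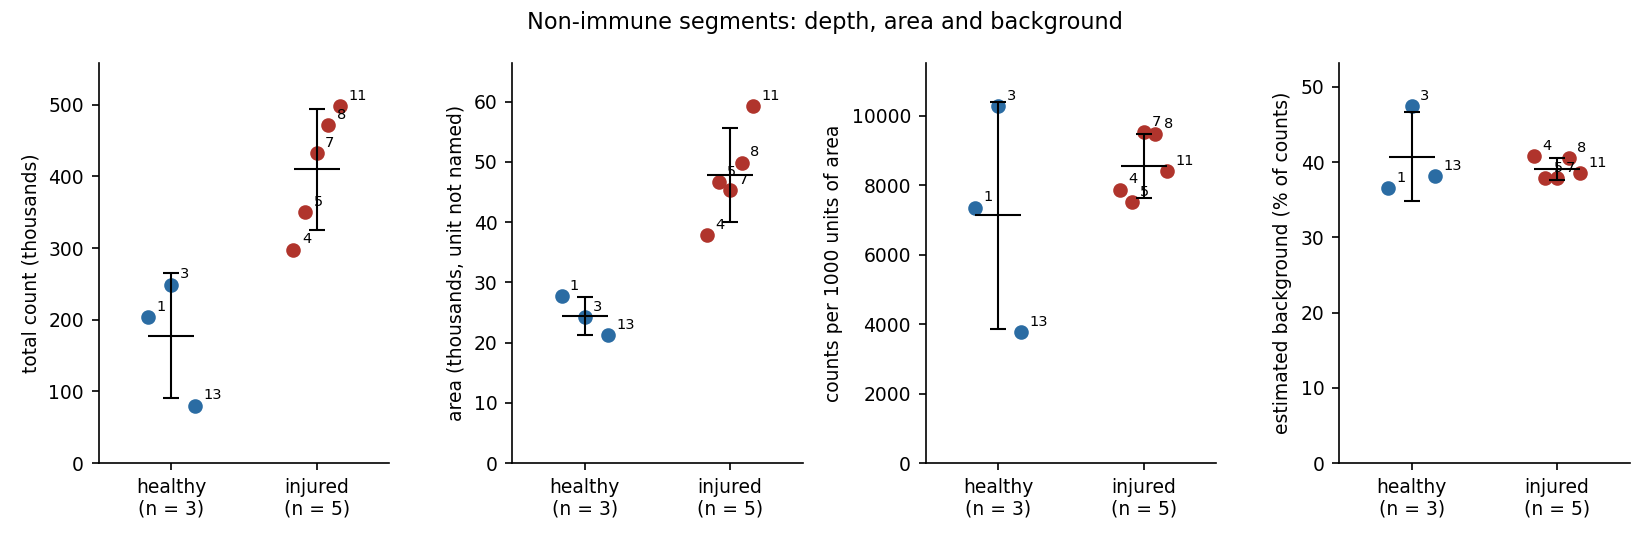
Total count, segment area, counts per 1000 units of area and estimated background share of the 3 healthy and 5 injured non-immune segments; points are segments with their region numbers, long bars the means and whiskers the SD. Total count and area do not overlap between the classes, whereas counts per area (3767 to 10287) and background (36.5% to 47.5%) do.

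Nearly all of the 20175 probes had a count in the deeper segments. Between 20142 and 20167 probes were counted in the injured segments, against 20014, 20150 and 18662 in healthy regions 1, 3 and 13 (exact permutation test, p = 0.0714, adjusted p = 0.143). After every segment was thinned to the 80259 counts of region 13, the injured segments held between 18692 and 18890 probes and the healthy ones between 18500 and 18962. The thinned means differed by 86.6 probes (exact permutation test, p = 0.5). The ranges of the classes overlapped both before and after thinning.

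A large part of the counts lay at the level of the rarest probes. The 2018 probes that were rarest in the macrophage segments served as a background set, whose mean count per probe was multiplied up to all 20175 probes. It made up 36.5% of the counts in healthy region 1 (95% exact Poisson interval 35.7 to 37.3), 47.5% in region 3 (46.6 to 48.3) and 38.2% in region 13 (36.8 to 39.5). In the injured segments it lay between 37.8% in region 7 and 40.8% in region 4. The intervals cover counting error only. The mean was 39.1% ± 1.42 (SD, n = 5) in injured and 40.7% ± 5.91 (SD, n = 3) in healthy segments (exact permutation test, p = 0.679, adjusted p = 0.679). Healthy region 3 stood above every injured segment, and the other 2 healthy regions lay at or below most of them.

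The summed share of the 10 most abundant probes overlapped between the classes. The 10 probes with the highest mean share took 4.20%, 3.55% and 4.13% of the counts in healthy regions 1, 3 and 13, and between 4.03% and 4.66% in the injured segments (exact permutation test, p = 0.179, adjusted p = 0.268). The top probe alone took between 1.27% and 1.65% in healthy and between 1.60% and 1.96% in injured segments. Single probes of high share did differ between the classes in the edgeR fit described below (adjusted p under 0.05). RTS0065956 and RTS0064052 were higher in injured segments, with log2 fold changes of 2.73 and 0.84, and RTS0076369 was lower (-1.30). No segment was dominated by a few probes.

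For the comparison of probes, the 6000 with the highest mean share over all 12 non-immune segments were kept and scaled to the third quartile (Q3) of their counts. These probes held between 49.3% and 56.4% of the counts of the 8 segments. The Q3 was 19, 21 and 8 counts in healthy regions 1, 3 and 13, and 24, 29, 35, 37 and 41 counts in injured regions 4, 5, 7, 8 and 11. Of the kept probes, 40 had no count in healthy region 13, and none was at 0 in the other 7 segments.

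By the variance that class accounted for, injured and healthy segments stood apart as whole profiles. Class accounted for 31.0% of the variance of log2(Q3-normalized count + 1) between the 8 segments (pseudo-F 2.70). This was the highest value among all 56 ways to assign 5 and 3 segments (exact permutation test, one-sided, p = 0.0179, the smallest they can give). With every segment thinned to the same total, the class accounted for 19.3% (pseudo-F 1.43), again the highest of the 56.

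The segments of a class were not alike. Principal component 1 held 42.1% of the variance and set healthy region 13, with a score of 55.4, apart from the others, whose scores lay between -16.0 and 6.27. Among these others, healthy regions 1 (6.27) and 3 (2.94) lay above all injured segments (-16.0 to -9.44). Region 13 was also the shallowest segment. Component 2 held 20.04% and ordered the injured segments between region 4 (-18.5) and region 5 (6.79), with healthy regions 1 (25.0) and 3 (20.9) above all of them. Region 13 lay among the injured segments on this component (-13.6).

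**Figure D2:**
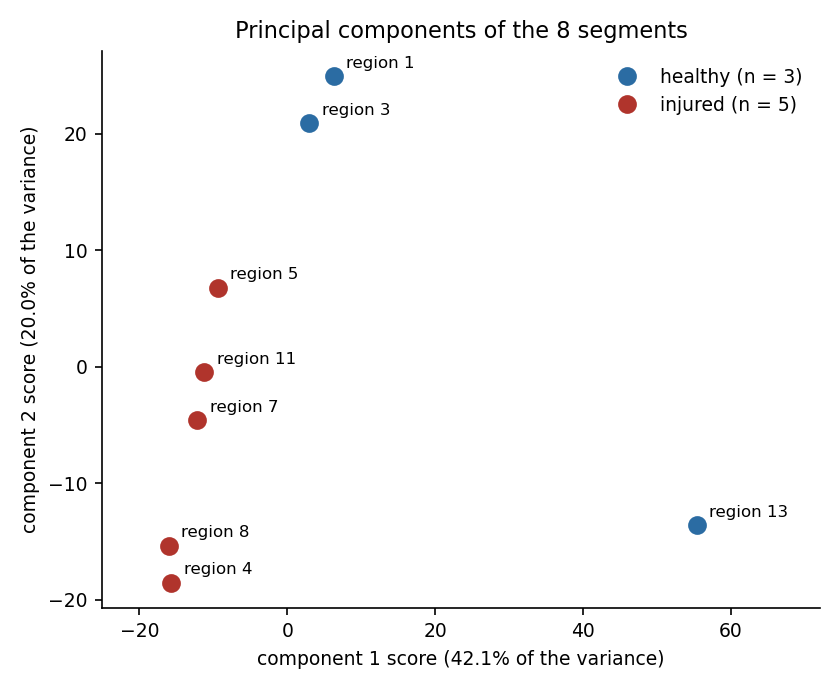
Scores of the 8 non-immune segments on principal components 1 and 2 of log2(Q3-normalized count + 1) over 6000 probes, coloured by class and labelled by region. Healthy region 13 lies alone at the right (component 1 score 55.4), and the injured regions spread along component 2 from region 4 to region 5.

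Across the 6000 probes, pairs of injured segments correlated with Pearson's r between 0.68 and 0.85 (median 0.78, 10 pairs), and pairs of healthy segments between 0.58 and 0.74 (median 0.58, 3 pairs). Injured and healthy segments correlated between 0.45 and 0.72 (median 0.59, 15 pairs). Both healthy pairs with region 13, the shallowest segment, had r = 0.58. Healthy regions 1 and 3 had r = 0.74, above every pair of an injured and a healthy segment. The healthy median thus rests on region 13, whose r with the injured segments was also low (0.45 to 0.55). These values are across probes, which are not independent replicates. Injured regions 7 and 11 were the most alike (r = 0.85), and regions 4 and 5 were the least alike of the injured pairs (r = 0.68). Region 5 was also the injured segment closest to the peri-injured tissue. Its mean r with the 4 peri-injured non-immune segments was 0.77, whereas regions 4, 8, 7 and 11 had means of 0.53, 0.55, 0.69 and 0.73. With the healthy segments, the mean r of region 5 was 0.66 and that of region 4 was 0.53.

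The injured segments differed from the healthy ones in a small part of the probes, and more of these were lower than higher. In the edgeR quasi-likelihood fit, 143 of the 6000 probes reached a Benjamini-Hochberg adjusted p under 0.05, which is 2.38% of the probes tested. In injured segments, 46 of them were higher (0.767%) and 97 lower (1.62%). The median log2 fold change was 1.24 among the probes called higher and -1.25 among those called lower. Changes of more than 1 on the log2 scale made up 40 of the 46 and 77 of the 97. The smallest called change was 0.79 in size (log2), and the median standard error over all tested probes was 0.29, so that smaller differences were mostly not detectable with these segments. The biological coefficient of variation in the fit, as edgeR names it, was 17.1%. With 1 mouse per class, it measures the spread between regions and holds none between mice.

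The balance of higher and lower calls moved with the scaling. Over all 6000 probes, the median log2 fold change was 0.15 after Q3 scaling and 0.02 after TMM scaling. TMM gave 24 probes higher and 152 lower, DESeq2 with its own size factors 30 higher and 174 lower, and thinning to the same total count 8 higher and 67 lower. DESeq2 left 2693 of the 6000 probes without an adjusted p, so that its counts come from fewer probes. On log2(Q3-normalized count + 1), limma instead gave 210 higher and 135 lower. Of the 143 probes, 121 were also called with TMM and 62 after thinning. Single segments moved the number of calls as well. It was 74, 71 and 94 without healthy regions 1, 3 and 13, 233 without injured region 5 and 93 without injured region 7.

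**Figure D3:**
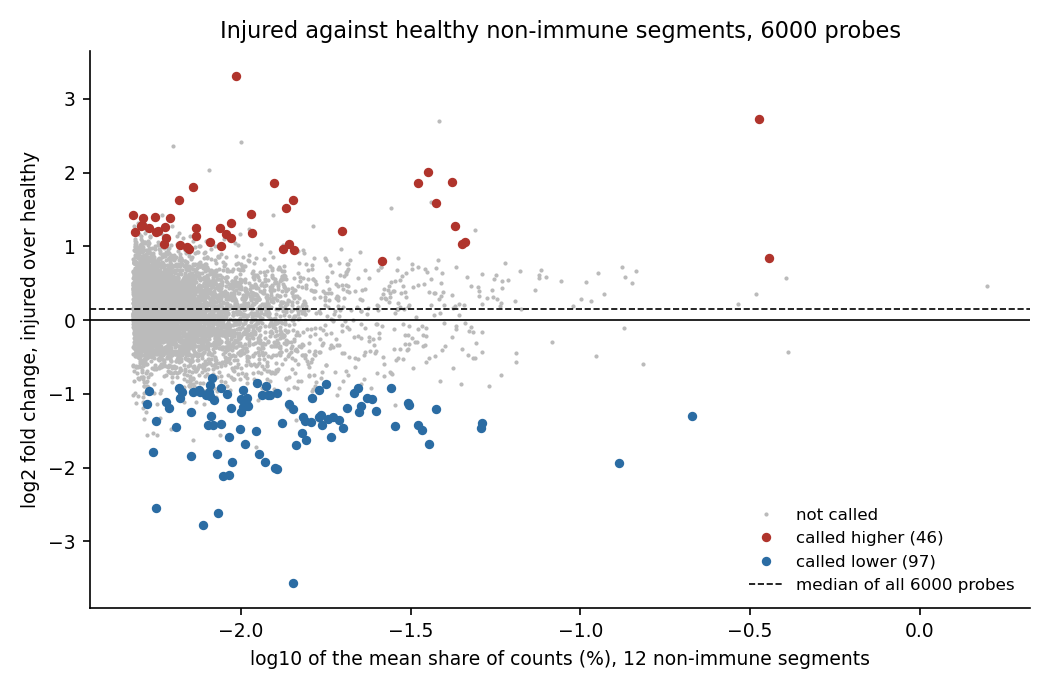
Log2 fold change of injured over healthy non-immune segments against the log10 of the mean share of counts for 6000 probes; red points were called higher (46) and blue points called lower (97) at an adjusted p under 0.05, and grey points were not called. The dashed line marks the median over all probes (0.15), and most called probes lie more than 1 from 0 on the log2 scale.

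Calls were concentrated among abundant probes. Of the 1500 most abundant probes, 97 were called (6.47%), with 25 higher and 72 lower. The next 1500 had 26 calls, followed by 12, and the 1500 least abundant had 8 (0.533%). The median standard error of the log2 fold change was 0.25 over the 1500 most abundant and 0.31 over the 1500 least abundant probes. The direction also differed by abundance, with 72 of 97 calls lower among the most abundant probes and 2 of 8 among the least abundant ones. The median log2 fold change over all 1500 probes was 0.07 in the most abundant and 0.21 in the least abundant set.

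Without a model of the spread, 834 of the 6000 probes had no overlap between the normalized counts of the 5 injured and 3 healthy segments (13.9%). All injured segments were above all healthy ones for 577 probes (9.62%) and below them for 257 probes (4.28%). Among the 1500 most abundant probes, the numbers were 172 above and 137 below, and among the 1500 least abundant 143 above and 19 below. Without healthy region 1, 3 or 13, which leaves 2 healthy segments, 1401, 1513 or 1394 probes had no overlap. The excess of higher probes depended on the scaling. With TMM, 314 probes lay above and 420 below, and after thinning 137 lay above and 219 below. Among the 1500 most abundant probes, TMM gave 92 above and 215 below, and thinning 56 above and 128 below. Among the 1500 least abundant, the numbers were 78 above and 38 below with TMM, and 31 and 20 after thinning. Of the 143 called probes, all 46 higher ones and 83 of the 97 lower ones had no overlap. Calls and overlap rest on the same counts of the same segments, so that this is no separate evidence for the calls.

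The probes called higher were raised in each injured segment rather than in single ones. Relative to the healthy mean on the log2(Q3-normalized count + 1) scale, their median was 1.19, 1.33, 1.32, 1.16 and 1.26 in injured regions 4, 5, 7, 8 and 11. The healthy segments lay at 0.06, 0.12 and -0.22. None of the 46 probes had more than 50% of its injured counts in a single segment, but only 7 of all 6000 probes did. The injured segment with the most counts held a median of 26.3% for the 46 probes and 26.9% over all 6000. This evenness is therefore not particular to the called probes. Together the 46 probes held between 0.584% and 0.662% of all counts in healthy segments and between 1.25% and 1.68% in injured segments. Since these segments chose the probes, the values describe the calls and are no test of them.

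The probes called lower varied more between the injured segments. Their median was -1.41 and -1.45 in regions 4 and 8, and -0.96, -1.14 and -1.01 in regions 5, 7 and 11. Together the 97 probes held between 2.93% and 3.21% of the counts in healthy segments. In regions 4 and 8 they held 0.769% and 0.696%, and 1.25%, 1.13% and 1.31% in regions 5, 7 and 11. Regions 4 and 8 thus had the lowest levels of these probes among the injured segments, and they also had the lowest scores on component 2. Component 2 rests on the same normalized counts, so that this is no separate observation. Both regions also had the highest estimated background of the injured segments (40.8% and 40.5%), whose part in these levels was not tested.

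The peri-injured regions lie in the same injured lung, and their 4 non-immune segments were set beside these values. The comparisons of injured and of peri-injured with healthy tissue share the 3 healthy segments. For the 46 probes called higher in injured tissue, the median log2 fold change of peri-injured over healthy segments was 0.76, beside 1.24 for injured over healthy. For the 97 probes called lower it was -0.59, beside -1.25. Over all 6000 probes, these medians were -0.0035 for peri-injured and 0.15 for injured segments. By segment, the 46 probes had a median between 0.75 and 0.98 and the 97 probes one between -0.72 and -0.51 in the peri-injured regions. The probes were chosen for being extreme in the injured segments against the same healthy ones, so that a median of the same sign but smaller size in another class follows in part from the choice, and nothing is read from this order.

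**Figure D4:**
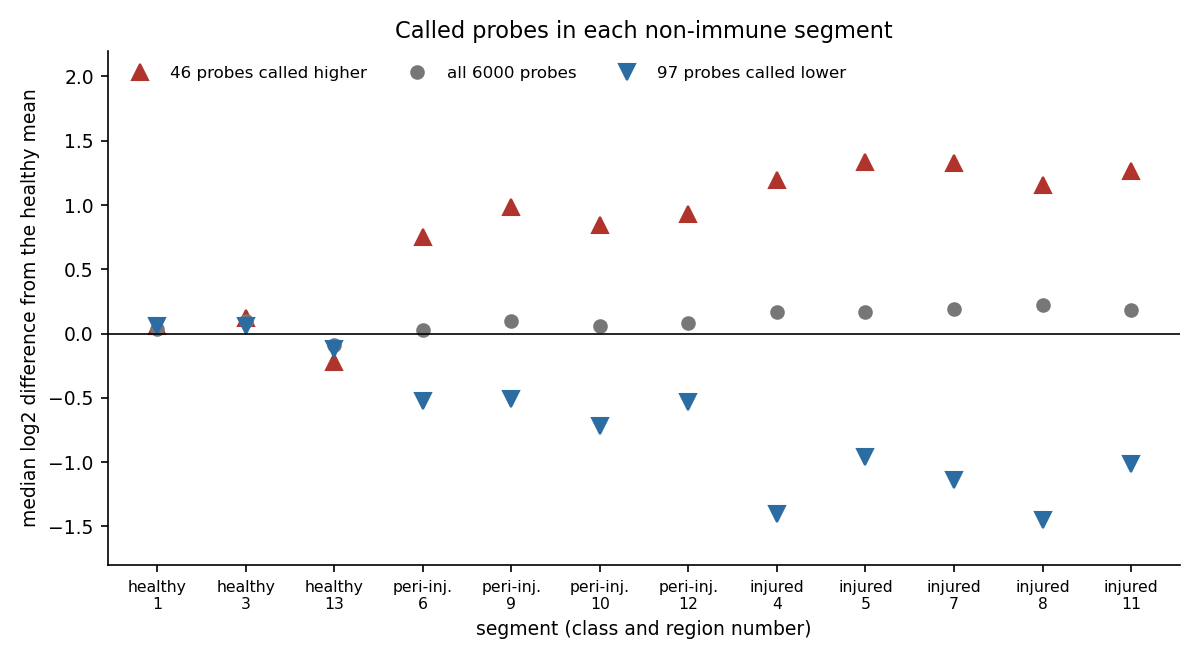
Median log2 difference from the healthy mean (Q3-normalized counts plus 1) in each of the 12 non-immune segments for the 46 probes called higher, the 97 called lower and all 6000 probes. Injured and healthy segments chose the called probes, so that their levels at these ends are set by the choice; among the injured segments, regions 4 and 8 have the lowest values of the lower set (-1.41 and -1.45).

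In their own tests, injured against peri-injured segments gave more calls than either comparison with healthy tissue. There, 1585 of the 6000 probes were called (26.4%), with 951 higher (15.8%) and 634 lower (10.6%) in injured segments. Peri-injured against healthy segments gave 271 calls (4.52%), with 161 higher (2.68%) and 110 lower (1.83%). All 3 comparisons came from 1 edgeR fit with 5 injured, 4 peri-injured and 3 healthy segments. Mean total counts were 410067, 427654 and 177838 in these classes. Both comparisons with healthy tissue thus used the class with the fewest segments and the lowest mean total. The numbers of calls therefore do not rank how far apart the classes lie. The classes of the first comparison differed in background, with 39.1% ± 1.42 (SD, n = 5) in injured and 31.9% ± 1.57 (SD, n = 4) in peri-injured segments, whose ranges did not overlap. After thinning to the same total count, which does not match the background shares, the numbers of calls were 258 (38 higher and 220 lower) and 129 (81 higher and 48 lower). With TMM, injured segments had 413 probes higher and 868 lower than peri-injured ones, which turned the balance of the directions. The part of background in these counts was not tested.

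The injured against healthy change was also measured in the macrophage segments of the same 8 regions. These segments were shallower, with totals between 35909 and 119493, with a median standard error of 0.59 for a log2 fold change. In their own fit over the same 6000 probes, 51 were called (0.85%), with 13 higher (0.217%) and 38 lower (0.633%). The 46 probes called higher in non-immune segments had a median log2 fold change of 0.63 in macrophage segments, and 39 of them had a positive value (84.8%), against a median of 0.08 and 54.7% positive over all 6000 probes. The 97 probes called lower had a median of -1.12, and 85 had a negative value (87.6%), against 45.3% of all probes. Of the 46, 5 were called higher in macrophage segments, against 0.217% of all probes. Of the 97, 20 were called lower, against 0.633%. Both compartments were collected within the same regions of the same 2 mice, which makes the values of the compartments dependent.

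A difference between the compartments in this change was tested as an interaction over all 24 segments, on the 6000 probes with the highest mean share over these 24. This set holds 42 of the 46 probes called higher and 94 of the 97 called lower in non-immune segments, and the other 7 were not tested. No probe had an adjusted p under 0.05 in edgeR's quasi-likelihood test (0 of 6000), and 284 had an unadjusted p under 0.05. TMM scaling, DESeq2 and thinning to 21955 counts also gave 0 calls, with 294, 262 and 280 probes at an unadjusted p under 0.05. Without any difference, a share of 0.05 of the 6000 probes would be expected under that threshold. Neither the 284 nor these counts exceeded that share. With the region as a block, which pairs the segments of a region, 7 probes were called, all with a lower change in non-immune than in macrophage segments. The low counts of the macrophage segments limit this test.

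A group of 30 probes was called in the same direction whichever of the 8 segments was left out, and had no overlap between the classes. Injured segments had 6 of them higher and 24 lower. Their log2 fold changes had a median of 1.84 (1.27 to 3.31) for the higher and -1.52 (-2.55 to -1.16) for the lower probes. In each direction, the probe with the largest change and the most abundant one are described with their values in every segment.

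The largest rise was that of probe RTS0075359. Its raw counts were 5, 6 and 1 in healthy regions 1, 3 and 13, and 29, 175, 61, 36 and 106 in injured regions 4, 5, 7, 8 and 11. After Q3 normalization, the values were 7.26, 7.89 and 3.45 in healthy segments and 33.4, 166.6, 48.1, 26.9 and 71.4 in injured segments. Every injured segment was above every healthy one, and region 5 alone held 43.0% of the injured counts. The log2 fold change was 3.31 ± 0.62 (SE), or 3.16 above the median of all probes (edgeR, adjusted p = 0.00381). The healthy counts lay near the estimated background, which was 3.69, 5.86 and 1.52 counts per probe in regions 1, 3 and 13. The peri-injured segments were low, with normalized counts of 5.11, 5.31, 5.77 and 5.81 in regions 6, 9, 10 and 12, and differed from the healthy ones by -0.32 ± 0.87 (SE) on the log2 scale (edgeR, adjusted p = 0.920). Injured exceeded peri-injured segments by 3.63 ± 0.46 (SE) on the log2 scale (edgeR, adjusted p = 2.62e-05). The raw peri-injured counts of 10, 5, 13 and 4 were close to the estimated background of 8.40, 4.73, 10.5 and 3.16 counts per probe, so that the sizes of both folds rest on classes near background. In the macrophage segments, the raw counts were 1, 1 and 0 in healthy regions and 5, 47, 15, 6 and 7 in injured regions 4, 5, 7, 8 and 11. Region 5 thus had the highest value of this probe in both compartments.

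Probe RTS0065956 was the most abundant of the 6 higher probes of this group and ranked 5 among the 6000 by share of the counts. Its normalized counts were 122.0, 280.0 and 120.8 in healthy regions 1, 3 and 13. In injured regions 4, 5, 7, 8 and 11 they were 884.5, 1466, 1580, 880.4 and 1072. The lowest injured value was over 3 times the highest healthy one, and regions 4 and 8 were the lowest of the injured. The log2 fold change was 2.73 ± 0.31 (SE), or 2.59 above the median of all probes (edgeR, adjusted p = 1.54e-05). Unlike the first probe, it was also high in the peri-injured segments, with normalized counts of 1409, 2249, 1324 and 1302 in regions 6, 9, 10 and 12. Injured minus peri-injured was -0.42 ± 0.25 (SE) on the log2 scale (edgeR, adjusted p = 0.204), and peri-injured minus healthy was 3.15 ± 0.32 (edgeR, adjusted p = 1.12e-06). In macrophage segments, injured exceeded healthy by 1.77 ± 0.37 on the log2 scale (edgeR, adjusted p = 0.00141), although the normalized counts overlapped, with 51.6 to 206.0 in injured and 14.8 to 52.9 in healthy segments.

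The largest fall among the 24 lower probes was that of RTS0070407. Its normalized counts were 36.3, 72.3 and 31.1 in healthy regions 1, 3 and 13, and 5.75, 5.71, 12.6, 7.46 and 9.43 in injured regions 4, 5, 7, 8 and 11. All injured segments lay below all healthy ones. The log2 fold change was -2.55 ± 0.31 (SE), or -2.70 relative to the median of all probes (edgeR, adjusted p = 2.45e-05). The raw counts of 5, 6, 16, 10 and 14 in these injured segments were close to the estimated background of 6.02, 6.58, 8.10, 9.47 and 9.51 counts per probe. The peri-injured segments were low as well, with normalized counts between 4.36 and 9.56. Peri-injured minus healthy was -2.75 ± 0.32 on the log2 scale (edgeR, adjusted p = 9.75e-06), and injured minus peri-injured was 0.20 ± 0.35 (edgeR, adjusted p = 0.688). In macrophage segments, it had 17 raw counts in all over the 5 injured and 20 over the 3 shallower healthy segments, or normalized counts of 0.771 to 5.40 and 5.40 to 12.1.

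The most abundant of the 24 lower probes of this group was RTS0062667, which ranked 111 by share of the counts. Its normalized counts were 207.8, 186.7 and 165.6 in healthy regions 1, 3 and 13, a narrow range. In injured regions 4, 5, 7, 8 and 11 they were 40.3, 86.6, 59.2, 33.6 and 72.7, all below the healthy segments and lowest in regions 8 and 4. The log2 fold change was -1.68 ± 0.25 (SE), or -1.83 relative to the median of all probes (edgeR, adjusted p = 0.000391). The peri-injured segments lay between both classes without overlap, with normalized counts of 107.9, 111.5, 131.7 and 104.6 in regions 6, 9, 10 and 12. Injured minus peri-injured was -0.96 ± 0.23 on the log2 scale (edgeR, adjusted p = 0.00554), whereas peri-injured minus healthy was -0.72 ± 0.26 (edgeR, adjusted p = 0.132). In macrophage segments, injured minus healthy was -1.33 ± 0.33 (edgeR, adjusted p = 0.0183), although the normalized counts overlapped, with 5.40 to 33.1 in injured and 32.4 to 45.9 in healthy segments.

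**Figure D5:**
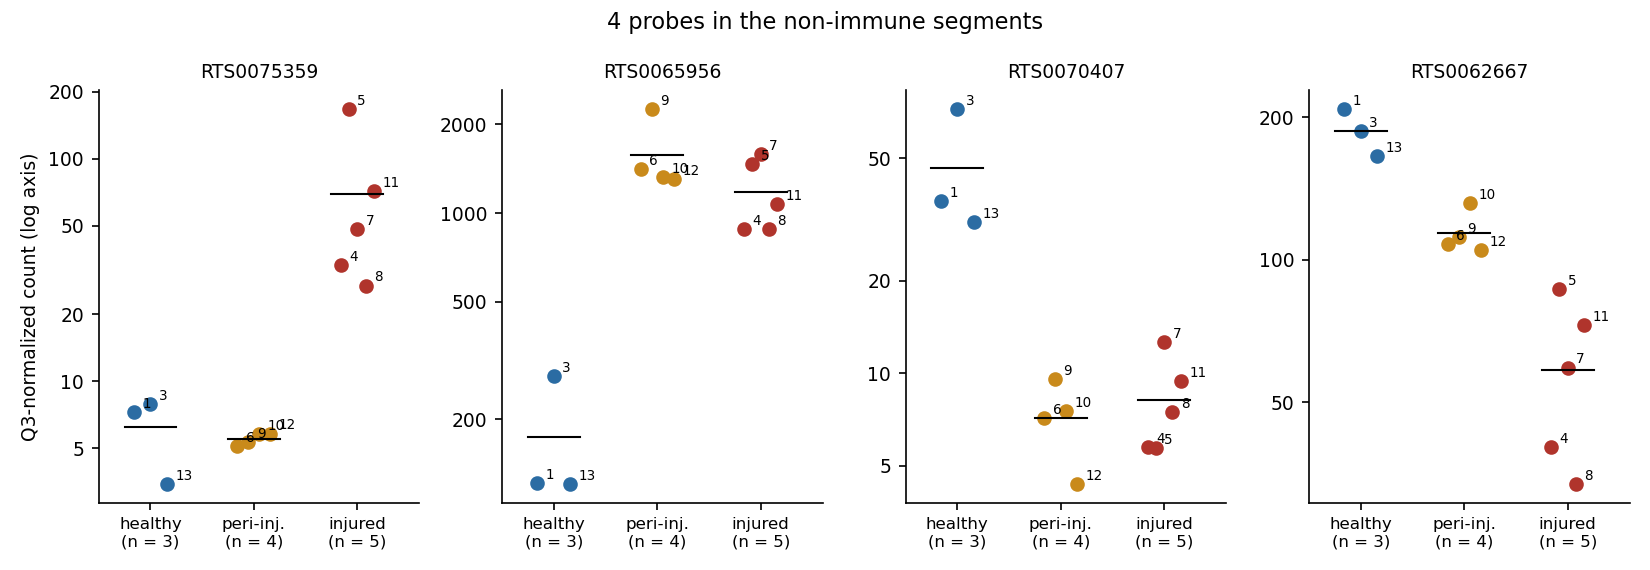
Q3-normalized counts, on log axes, of 4 probes in the 3 healthy, 4 peri-injured and 5 injured non-immune segments; points are segments with their region numbers and lines are class means. RTS0075359 is high in the injured segments and low in the others, RTS0065956 and RTS0070407 overlap between peri-injured and injured segments, and RTS0062667 is intermediate in peri-injured segments.

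The 4 probes therefore showed 3 arrangements of the classes. RTS0075359 separated injured from both other classes, RTS0065956 and RTS0070407 separated healthy from both other classes, and RTS0062667 took a different level in each, with the step from healthy to peri-injured not past the threshold. For none of the 4 did the interaction with the compartment pass the threshold (edgeR, adjusted p of 0.978 or higher).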

How the data were processed

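Per the labels and the study's methods, the authors hybridized the Mouse Whole Transcriptome Atlas (version 1.0) to lung sections and processed the reads with NanoString's GeoMx pipeline (2.3.4 per the headers of the count files, 2.3.5 per the metadata sheet), which aligned them to probe barcodes and collapsed duplicates by molecular identifier. Raw counts of each probe were deposited by the authors without filter or scaling, and an unlisted probe was read as 0. Segment areas came from the worksheet of the authors. The reaction without tissue held 1 count of 150068 reads. The negative control probes are not marked, so the limit of quantitation of the study was not computed, and the 6000 probes with the highest mean share over the 12 non-immune segments were kept.

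Groups came from the labels. Counts were tested with edgeR 4.0.16 (R 4.3.3; upper-quartile scaling at the 75th percentile, 1 term per region class, 12 segments), with Benjamini-Hochberg adjustment and calls at an adjusted p under 0.05. Each standard error is the size of the log2 fold change divided by the square root of F. Alternatives used TMM, DESeq2 1.42.0, limma 3.58.1 (pseudocount 1), other filters, thinning without replacement (fixed seed) and each segment left out. Region numbers in the labels pair the CD68 and non-immune segments of a region. Deviations of paired segments from their class means correlated between 0.0024 and 0.11 over 12 regions, with 1 above 0.1. Segment measures were tested by exact permutation with scipy 1.17.1. Region 4 carries the control lung's tissue number in another annotation of the study, but the treatment of the injured lung there, and was used as labelled (injured). The tamoxifen schedule of the study's methods differs from that of the labels. Described probes were taken from those called, without overlap, and called in the same direction with each of the 8 segments left out: in each direction, the largest change and the highest mean normalized count. The members, lists and rules were chosen with earlier results of these data known.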

Additional observations from a re-analysis of the deposited data

How the results depend on the processing

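With another test or filter, the number of probes called between injured and healthy segments was 345 by limma, 75 after thinning and 1078 at an unadjusted p of at most 0.05, against 143, and with 1 segment left out it lay between 71 and 233. On the same 6000 probes, TMM, DESeq2 and a fit of the 8 segments alone gave between 128 and 204 calls. The other filters tested more probes. Without a filter, 139 of 20175 probes were called (20 higher and 119 lower). Of 10000 probes, 153 were called (27 higher and 126 lower), and with filterByExpr 166 of 17037 (19 higher and 147 lower). Against 46 higher and 97 lower in the main fit, the balance of the directions thus moved with the filter as well. The median log2 fold change of the probes tested, 0.15 after Q3 scaling, was 0.022 with TMM, 0.012 with DESeq2, 0.18 with limma, 0.098 without a filter, 0.085 with 10000 probes, 0.063 with filterByExpr and 0.023 after thinning, and it lay between 0.12 and 0.20 with 1 segment left out. The number of probes without overlap was 356 after thinning, against 834, and between 932 and 1513 with 1 segment left out, since fewer segments overlap less. Calls of injured against peri-injured segments fell from 1585 to 258 and those of peri-injured against healthy from 271 to 129 after thinning. The interaction had 0 calls with each region left out and 7 with the replicate block. The cause of these shifts was not tested.

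The pseudo-F stayed the highest of all assignments under every alternative tried and lay between 2.24 and 3.10 with 1 segment left out. The ratio of injured over healthy segments with 1 segment left out lay between 1.81 and 2.88 for the total count, 1.84 and 2.1 for area, 0.97 and 1.54 for counts per area, 1.00 and 1.04 for probes with a count, 0.91 and 1.05 for background and 1.04 and 1.13 for the share of the top 10 probes. With a segment left out, exact tests of these ratios cannot reach a p under 0.05. The 4 described probes kept their direction and call under every alternative that gave an adjusted p, with log2 fold changes from 2.51 to 3.52 (RTS0075359), 2.52 to 3.27 (RTS0065956), -3.03 to -2.02 (RTS0070407) and -1.86 to -1.53 (RTS0062667). DESeq2 gave RTS0070407 no adjusted p. The fits with 1 segment left out were part of the rule that chose these probes. Direction and call in those fits were therefore fixed in advance.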
